A study of Zea mays with 18 samples.

Results

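The developing maize ear was compared at 2 stages of control plants: the ear inflorescence, collected at the V16 growth stage, and the ear, collected at R1, the stage at which silks emerge. Each stage had 3 biological replicates. The 6 samples came from 1 elite hybrid, Monsanto Elite Hybrid NN6306, grown in the field in Illinois in 2012 without a stress treatment, and the control plants carried no ATHB17 transgene. The sources used here do not say how many plants made up a replicate, which parts of the ear were taken or at what time of day. The same table holds 12 samples of plants of the same hybrid expressing ATHB17Δ113, a shortened form of an Arabidopsis homeodomain-leucine zipper protein, from the rice actin promoter, as 2 independent transformation events with 3 ear and 3 ear inflorescence samples each. Those samples entered the fit only to estimate the spread between replicates, and they are compared with the control plants at the end.

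Expression was given as normalized counts, which are sequencing reads per gene divided by a factor for each sample. Of 76612 gene identifiers, the 39622 with a mean of at least 10 normalized counts over the 6 control samples were described. A gene was called higher or lower in the ear when the moderated test of limma, on log2 of the normalized count plus 1, gave a raw p of 0.0001 or less, the threshold of the study. Fold changes are ear against ear inflorescence, on the log2(normalized count + 1) scale, with the standard error (SE) of the fit. The replicates are called 1, 2 and 3 in the order of their labels, and values are listed in that order. Among the identifiers described, 2519 carried a gene name, and 844 fell into 61 lists of genes with known roles. The files hold no transcript lengths, so levels are compared between samples and never between genes.

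As background, the maize ear begins as an inflorescence meristem that produces rows of branch meristems, each of which gives a pair of spikelet meristems and then florets. KNOTTED1-like homeobox (KNOX) proteins keep meristem cells undifferentiated, the CLAVATA receptors and WUSCHEL set the size of the stem cell pool, and the RAMOSA and BARREN STALK genes govern branching. In the ear the anthers of each floret are arrested and the pistil grows on. By silking the floral organs are formed, the silks elongate by cell expansion, and the cob and florets import sugar and nitrogen ahead of fertilization. These are bulk tissues, and fewer cells of a type cannot be told apart from less RNA per cell.

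In the ear 5235 identifiers (13.2% of those described) were called higher and 4903 (12.4%) were called lower than in the ear inflorescence. The Benjamini-Hochberg adjusted p of limma was at most 0.000724 among these calls. The median log2 fold change over all identifiers described was 0.0141, and the quartiles were -0.913 and 0.739. Large increases outnumbered large decreases: 770 of the genes called higher changed by more than 8-fold, against 157 of those called lower. For 27 identifiers every ear inflorescence sample was at 0, and for 2 every ear sample was at 0. A few genes took more of the counts in the ear, where the 10 highest identifiers held 7.2% to 7.73% of all normalized counts, against 4.95% to 5.64% in the ear inflorescence. The normalized totals were 42919185 to 44272062 in the ear and 30346120 to 31161720 in the ear inflorescence. When the samples were scaled to equal totals of assigned reads instead, called equal-total scaling here, the median log2 fold change shifted by -0.499. The calls then split into 2868 higher and 7784 lower. No gene called in the deposited scaling changed its direction. The called genes had a median absolute log2 fold change of 1.67, so a shift of this size was too small to reverse most of them. Leaving out any 1 control sample left between 3025 and 4057 genes called higher and between 1865 and 2751 called lower. Of the 176 genes named below that were called, 116 were still called whichever control sample was left out. Some of these were named for a small p or a large change, so the share does not stand for all calls.

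**Figure D1:**
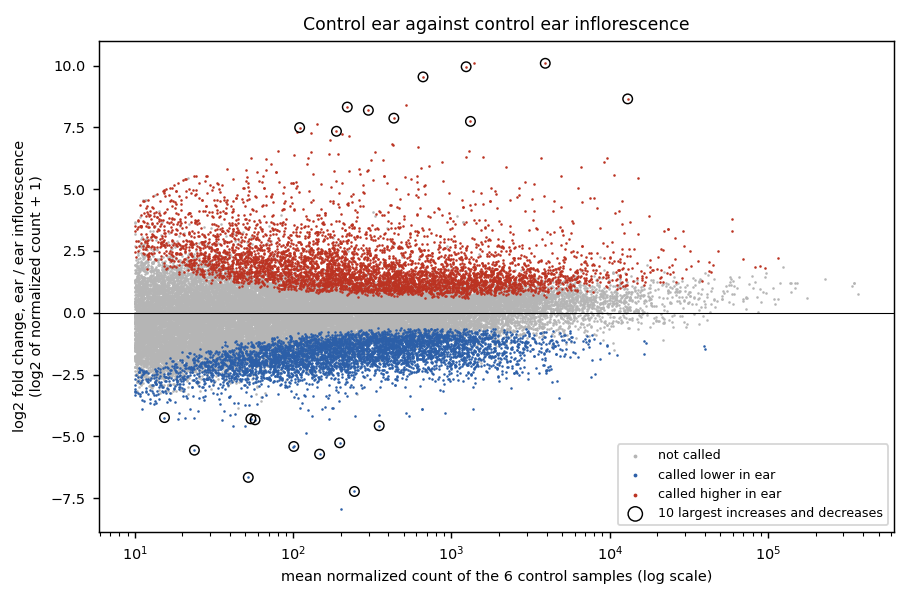
Log2 fold change of the control ear against the control ear inflorescence (vertical axis, log2 of the normalized count plus 1) by the mean normalized count of the 6 control samples (horizontal axis, log scale). Each point is 1 of the 39622 identifiers, grey where not called, red for the 5235 called higher and blue for the 4903 called lower, and the 10 largest increases and 10 largest decreases of the naming rule are circled.

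The lists of DNA replication, mitosis, DNA methylation and Polycomb, and growth-regulating factors held genes called lower and none called higher. The lists of expansins, lignin genes, aquaporins, photosynthesis, jasmonate and pathogenesis-related genes held genes called higher and none called lower. Of the 844 list genes, 214 were called higher, 111 lower and 519 were not called. The plot of fold changes by list shows each gene.

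**Figure D2:**
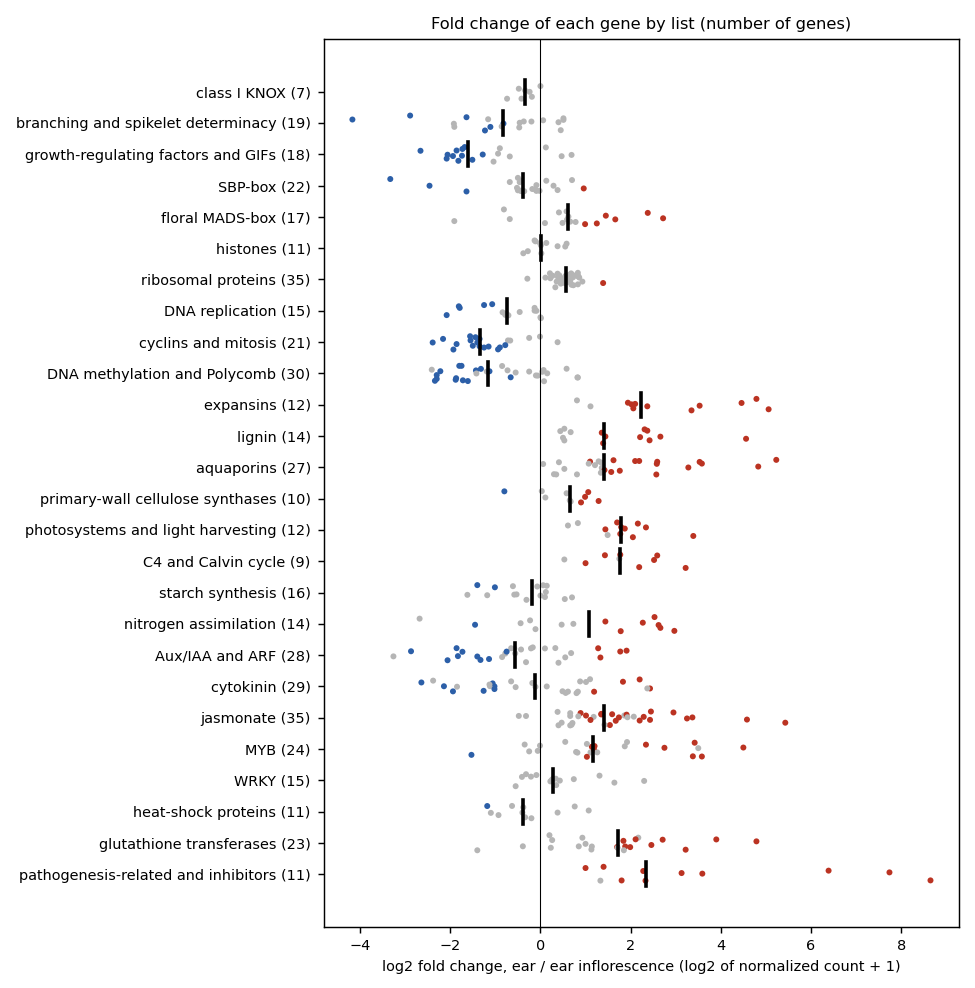
Log2 fold change of the control ear against the control ear inflorescence for each gene with a mean of at least 10 normalized counts in 26 lists, 1 row per list (horizontal axis, log2 of the normalized count plus 1). Red points were called higher, blue points lower and grey points were not called, and the black bar is the median of the list, from -1.60 for the growth-regulating factors to 2.33 for the pathogenesis-related proteins and inhibitors.

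Of 19 genes of branching and spikelet determinacy, 6 were called lower in the ear, none higher, and 13 were not called. Barren stalk1 (BA1), the basic helix-loop-helix gene needed to initiate axillary meristems, had 235, 329 and 192 normalized counts in the ear inflorescence and 8.2, 14.5 and 16.9 in the ear. Every inflorescence sample was above every ear sample, and the log2 fold change was -4.17 ± 0.45. Sparse inflorescence1 (spi1), an enzyme of auxin synthesis, had 34.4, 65.9 and 46.1 normalized counts in the ear inflorescence and 3.51, 10.6 and 4.22 in the ear (-2.89 ± 0.49). Unbranched2 (ub2), an SBP-box gene that limits branching, had 2178, 2778 and 2619 normalized counts against 515, 1246 and 808 (-1.64 ± 0.27). The groups did not overlap for any of these genes. The co-repressor gene rel2, named for enhancing ramosa1 mutants, and its relatives RELK2 and RELK3 fell by 0.82, 1.11 and 1.23 on the log2 scale. These 6 were the genes called in the list, and the median of the list was -0.82, against 0.0141 over all identifiers.

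The ramosa genes themselves sat at low counts. Ra1, a zinc finger gene of branch meristems, had 9.81, 9.31 and 0.8 normalized counts in the ear inflorescence and 0 in every ear sample, below the minimum mean of 10. Ra3, a trehalose phosphatase, had 46.3, 64.5 and 28.6 against 7.03, 21.1 and 8.45, which did not overlap and missed the threshold on the raw p (-1.92 ± 0.49, limma adjusted p = 0.0041). Tunicate1, the MADS-box gene of glume identity, had 660, 830 and 1124 against 228, 174 and 288 and was not called either (-1.91 ± 0.54).

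The KNOX genes and the CLAVATA-WUSCHEL genes did not pass the threshold. Knotted1 (kn1) had 7134, 8490 and 6998 normalized counts in the ear inflorescence and 5650, 6777 and 6720 in the ear, so the groups were separate by a narrow margin and differed by -0.24 ± 0.25 on the log2 scale. None of 7 class I KNOX genes was called by limma, edgeR or DESeq2. In limma 3 had an unadjusted p under 0.05, and 2 were lower at an adjusted p under 0.05. Their median was -0.34, and -0.84 with equal-total scaling. None of 6 CLAVATA-WUSCHEL genes was called by limma or DESeq2, 1 was called by edgeR and 2 had an unadjusted p under 0.05 in limma, and the median of 0.16 became -0.35 with equal-total scaling. Among these, the stem cell regulator wus1 had 17.5, 25.8 and 22.3 normalized counts against 1.17, 3.96 and 7.39 (-2.33 ± 0.63, limma adjusted p = 0.0065), and thick tassel dwarf1 (TD1), a CLAVATA1-type receptor kinase, had 287, 410 and 456 against 568, 660 and 726 (0.78 ± 0.19, limma adjusted p = 0.0028). Both pairs of groups were separate without reaching the threshold. Summed over 11 meristem and branching marker genes, the counts were 15031 to 18424 in the ear inflorescence and 10371 to 13432 in the ear. These sums were 0.0491% to 0.0607% and 0.0242% to 0.0303% of all counts.

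**Figure D3:**
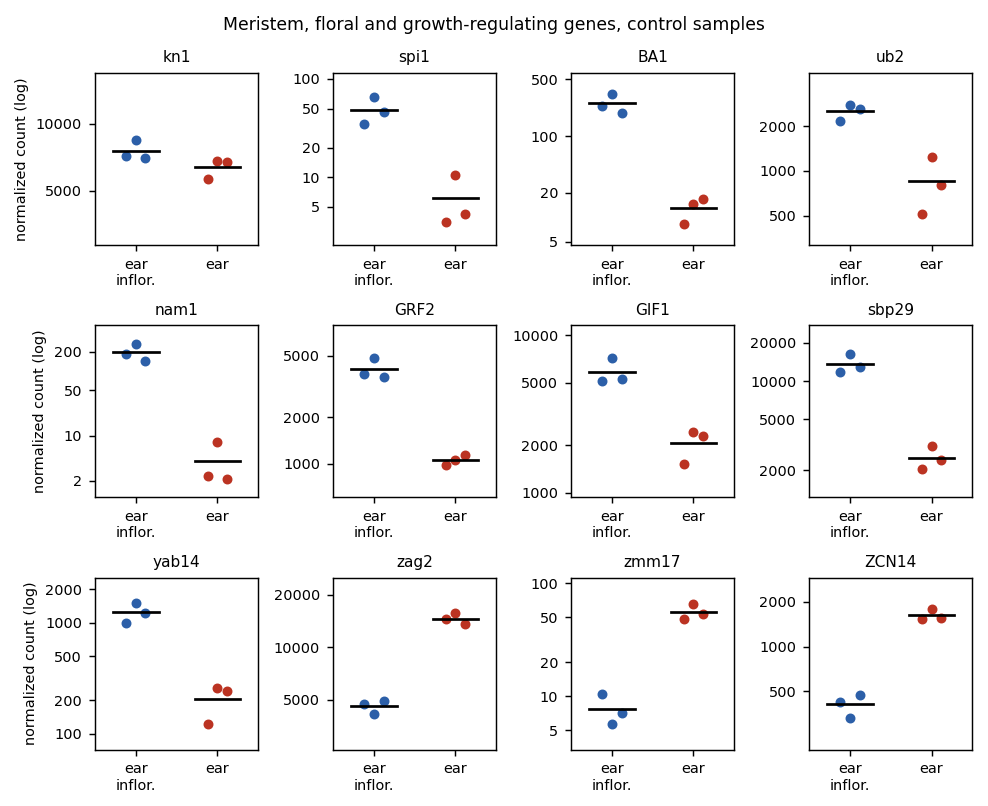
Normalized counts of 12 meristem, floral and growth-regulating genes in each control sample (vertical axes, log scale, 1 panel per gene). Blue circles are the 3 ear inflorescence samples, red circles the 3 ear samples, and black bars the group means; the groups of kn1 lie close together, and BA1, nam1 and GRF2 are lower in all ear samples.

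The growth-regulating factors (GRF) and their coactivators (GIF) promote cell proliferation in young organs, and 11 of 18 were called lower, none higher, with a median of -1.60. GRF2 had 3795, 4832 and 3654 normalized counts in the ear inflorescence and 984, 1061 and 1143 in the ear (-1.94 ± 0.19). GRF8 had 250, 291 and 230 against 70.3, 77.9 and 81.3 (-1.73 ± 0.19), and the coactivator GIF1 had 5146, 7119 and 5310 against 1512, 2413 and 2292 (-1.51 ± 0.28). GRF4, GRF10 and GIF2 were not called, with fold changes of 0.69, 0.47 and 0.12, which became 0.19, -0.04 and -0.39 with equal-total scaling.

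Among SBP-box genes, transcription factors that often act in the timing of development, 3 of 22 fell and 1 rose, a share lower close to the 12.4% of all identifiers. Sbp29 had 11847, 16480 and 12821 normalized counts in the ear inflorescence and 2028, 3111 and 2379 in the ear (-2.46 ± 0.26), and sbp21 had 222, 422 and 277 against 22.2, 40.9 and 25.3 (-3.33 ± 0.41). The gene that rose was sbp3 (GRMZM2G101499, 0.96 ± 0.17). The median of the list was -0.39.

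Organ polarity genes divided. The YABBY gene yab14 had 995, 1493 and 1212 normalized counts in the ear inflorescence and 122, 256 and 240 in the ear (-2.63 ± 0.26), and the class III homeodomain genes rld1 and rld2, which specify the upper side of leaves, fell by 1.34 and 1.60. Leafbladeless1 (lbl1), which acts in the small RNA pathway of leaf polarity, fell by 0.95. The other YABBY genes called rose: YAB3 by 1.56 ± 0.22, YAB11 by 1.25 ± 0.25 and YAB5 by 1.12 ± 0.17. In all 3 of 18 list genes were called higher and 4 lower, beside 13.2% and 12.4% of all identifiers. The median was 0.31, and -0.20 with equal-total scaling.

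Of the floral MADS-box genes 6 of 17 were called higher and none lower, with a median of 0.62, or 0.11 with equal-total scaling. MADS34, which fell by 7.23 and is described below, is not in this list. ZMM2 (GRMZM2G359952), an AGAMOUS-type gene of the class that specifies reproductive organs, had 390, 260 and 369 normalized counts in the ear inflorescence and 1796, 1521 and 1951 in the ear (2.38 ± 0.24). Zag2, of the AGAMOUS-like group active in carpels and ovules, had 4710, 4146 and 4940 against 14573, 15615 and 13489 (1.66 ± 0.28). The B-sister gene zmm17, a group known from ovules, had 10.5, 5.73 and 7.16 against 48, 66 and 53.8 (2.72 ± 0.32). The SEPALLATA-type genes zmm27 and zmm31 rose by 1.45 ± 0.20 and 0.99 ± 0.18, and zmm29, a PISTILLATA-type gene, rose by 1.25 ± 0.25. The other B-class genes were not called: Silky1, the maize APETALA3 gene, had 299, 613 and 327 normalized counts against 196, 222 and 257, and zmm16 had 434, 550 and 573 against 590, 473 and 609. Silky1 is known for its part in stamens and lodicules.

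In the LEAFY and florigen family, whose proteins relay the signal to flower or hold it back, 4 of 8 genes rose and 1 fell. ZCN14 had 423, 329 and 473 normalized counts in the ear inflorescence and 1540, 1789 and 1568 in the ear (2.01 ± 0.19). ZCN16 had 4.21, 6.45 and 6.36 against 51.5, 33 and 65.5 (2.90 ± 0.45), and ZCN4 rose by 1.42 ± 0.18. Indeterminate1 (id1), a zinc finger regulator of flowering known from leaves, rose from 9.81, 8.6 and 7.95 to 63.2, 33 and 42.2 (2.22 ± 0.41). Delayed flowering1 (DLF1), the bZIP partner of florigen at the shoot apex, fell from 28.7, 40.8 and 31.8 to 4.69, 5.28 and 5.28 (-2.50 ± 0.44). ZCN8, the florigen of maize leaves, was below the minimum mean, at 2.8, 5.01 and 3.18 against 2.34, 1.32 and 2.11.

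Among genes of meiosis, 2 of 9 fell and 2 rose, beside 12.4% of all identifiers called lower and 13.2% called higher. ZYP1, a component of the synaptonemal complex, had 508, 469 and 377 normalized counts in the ear inflorescence and 65.6, 51.5 and 28.5 in the ear (-3.26 ± 0.47). Dmc1, the meiotic recombinase, had 137, 148 and 125 against 330, 257 and 345 (1.17 ± 0.18). Shugoshin (sgo1), which protects cohesion at centromeres, fell by 1.30 ± 0.18, and the meiotic cyclin Cyclin-SDS rose by 0.89 ± 0.16. The meiotic cohesin gene afd1 had 64.5, 74.5 and 54.1 against 23.4, 5.28 and 16.9 without a call (-2.21 ± 0.53). Members of this list moved both ways.

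Cell division genes were lower in the ear. Of 21 cyclin and mitosis genes, 16 were called lower and none higher, with a median of -1.35. The kinesin gene krp13 had 4456, 4507 and 3891 normalized counts in the ear inflorescence and 834, 821 and 795 in the ear (-2.39 ± 0.20), and krp11 had 2649, 2493 and 2223 against 676, 652 and 602 (-1.93 ± 0.15). Within each stage the replicates of these genes lay close together. The mitotic cyclin gene cyclin8 had 1067, 1184 and 1015 against 424, 421 and 359 (-1.44 ± 0.13). SMC3, a cohesin subunit, fell by 1.86 ± 0.29, SMC6, of the related complex that acts in DNA repair, by 2.16 ± 0.25, and the spindle checkpoint gene mad2 by 0.94 ± 0.16. The exceptions were cdc2, the cyclin-dependent kinase (0.38 ± 0.13), tan1, krp15, cyclin11 and MIS12-1, which were not called.

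Genes that license and copy DNA fell in part. The replicative helicase subunits MCM7 and MCM6 had 870, 1046 and 832 and 1222, 1246 and 1045 normalized counts in the ear inflorescence. In the ear MCM7 had 221, 238 and 187 (-2.08 ± 0.17) and MCM6 had 346, 325 and 342 (-1.79 ± 0.16). The origin recognition genes orc1 and orc4 fell by 1.81 and 1.25, and the ribonucleotide reductase subunit RNRL2 by 1.07, whereas orc3, RNRS1, RNRS2 and RNRS3 lay between -0.13 and 0.01. In total 5 of 15 DNA replication genes were called lower and none higher. The retinoblastoma-related genes RBR1, RBR2 and rbr3, which gate entry into DNA synthesis, fell by 1.06, 1.40 and 2.09. Of the D-type cyclins, which act on them, cycD4 fell by 1.78 ± 0.24 and cycD2 rose from 1334, 1274 and 1367 to 3506, 3125 and 3112 (1.29 ± 0.18).

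Histone genes were not called: 0 of 11 passed the threshold in limma, edgeR or DESeq2, with 1 at an unadjusted p under 0.05 in limma and fold changes from -0.38 to 0.58, each with a standard error of 0.22 to 0.39. His2b2 had 24410, 24842 and 25928 normalized counts against 17738, 23049 and 17373. Reads that matched up to 10 transcripts were counted on each, and histone copies share sequence. Of 35 ribosomal protein genes 1 was called, rpl19 (GRMZM2G171444, 1.39 ± 0.15), and the median was 0.56, or 0.05 with equal-total scaling.

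**Figure D4:**
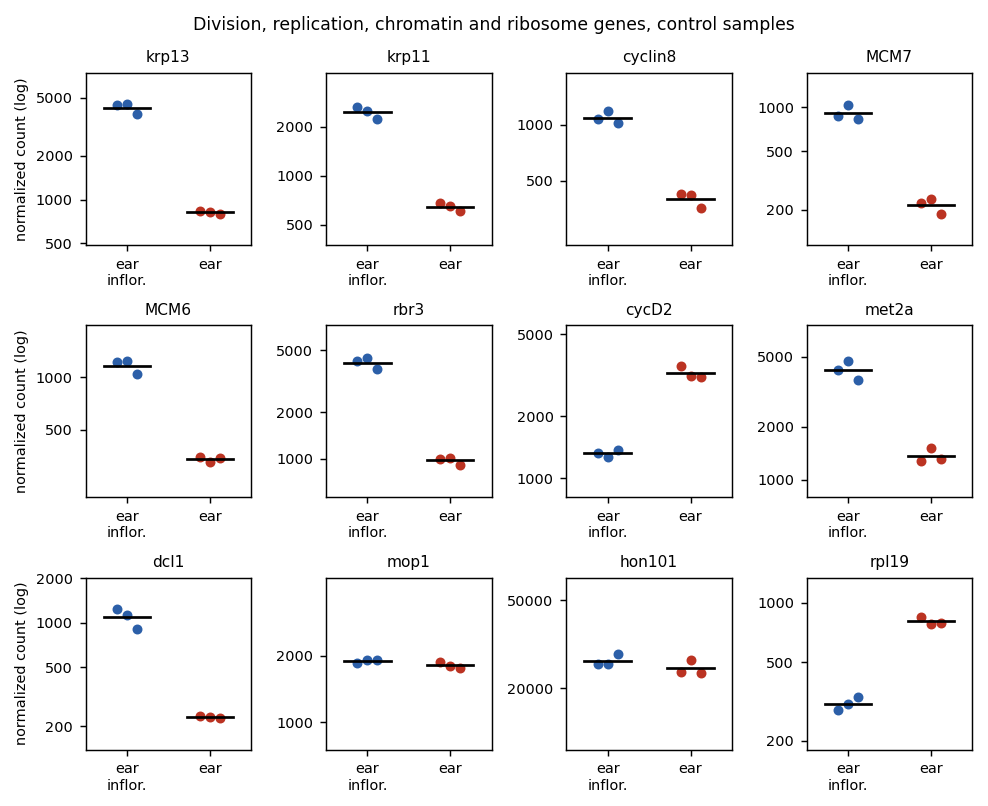
Normalized counts of 12 genes of cell division, DNA replication, chromatin and ribosomes in each control sample (vertical axes, log scale, 1 panel per gene). Blue circles are the 3 ear inflorescence samples, red circles the 3 ear samples, and black bars the group means; the kinesin, MCM, rbr3, met2a and dcl1 genes are lower in all ear samples, and the histone gene hon101 overlaps between the stages.

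In the DNA methylation and Polycomb list, which also holds small RNA genes, 14 of 30 were called lower and none higher (median -1.16). The chromomethylase gene met2a had 4192, 4687 and 3664 normalized counts in the ear inflorescence and 1271, 1519 and 1316 in the ear (-1.61 ± 0.14). The maintenance methyltransferase gene dmt101 (GRMZM2G334041) had 7269, 6991 and 5508 against 1349, 1369 and 1273 (-2.30 ± 0.23). Dicer-like1 (dcl1), which processes microRNAs, had 1237, 1132 and 907 against 235, 232 and 226 (-2.22 ± 0.32). The Polycomb genes mez1 and fie2 fell by 1.88 ± 0.20 and 0.66 ± 0.12. Mop1, the RNA-dependent RNA polymerase of paramutation, overlapped at 1854, 1920 and 1906 against 1875, 1802 and 1767 (-0.06 ± 0.15), and rdr6 was not called either (0.07 ± 0.13).

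Expansins loosen walls so that cells can elongate, and 10 of 12 were called higher, none lower, with a median of 2.23. Expa1 had 412, 228 and 506 normalized counts in the ear inflorescence and 11076, 12159 and 13323 in the ear (5.06 ± 0.31). ExpB6 had 9.81, 10 and 11.1 against 271, 222 and 253 (4.46 ± 0.31), and EXPA5 had 205, 232 and 419 against 2599, 2698 and 3038 (3.35 ± 0.24). For expA3 the inflorescence samples were uneven, at 74.3, 58.7 and 486, against 3250, 3237 and 4403 in the ear (4.79 ± 0.84). Inflorescence replicate 3 also had the highest of the inflorescence values for most of the genes called higher in the ear, 3550 of 5235, against 1070 for replicate 1 and 615 for replicate 2.

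Aquaporins, channels for water and small solutes, were called higher for 15 of 27 genes and lower for none, with a median of 1.42. The plasma membrane genes PIP1-1 and PIP1-3 rose by 2.19 ± 0.31 and 2.10 ± 0.32. NIP3-1 had 1741, 1786 and 1963 normalized counts in the ear inflorescence and 20884, 23500 and 21398 in the ear (3.58 ± 0.20). Among channels of the vacuole membrane, ZmTIP4-3 had 7.01, 8.6 and 12.7 against 532, 395 and 263 (5.23 ± 0.39), and TIP4-4 had 77.8, 38.7 and 89.8 against 1894, 1987 and 1725 (4.83 ± 0.51). The seed-type channel TIP3-1 was not called, at 24.5, 27.9 and 21.5 against 30.4, 25.1 and 22.2.

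Of 10 cellulose synthases of the primary wall 4 were called higher and 1 lower, with a median of 0.66, or 0.15 with equal-total scaling. CesA-7 rose by 1.29 ± 0.21, CesA-4 by 1.06 ± 0.15 and CesA-9 by 0.90 and 0.99 for its 2 identifiers. With equal-total scaling these increases were 0.39 to 0.78. CesA-3 fell by 0.80 ± 0.16, or 1.30 with equal-total scaling. The secondary wall synthases cesa11, CesA12 and CesA13 had fold changes of 0.94 to 0.99, or 0.44 to 0.49 with equal-total scaling, and were not called. In the same list 4 COBRA-like genes rose, among them Bk2L8 from 6.31, 3.58 and 8.75 to 72.6, 83.2 and 85.5 (3.56 ± 0.47). Of the lignin genes 9 of 14 were called higher and none lower (median 1.41). PAL1, at the entry of the pathway, had 3635, 4252 and 5669 normalized counts in the ear inflorescence and 18960, 21368 and 26492 in the ear (2.31 ± 0.27). The methyltransferase genes ccoaomt1 and CAOMT rose by 2.42 ± 0.22 and 2.21 ± 0.27, and BM1, the brown midrib1 gene that encodes a cinnamyl alcohol dehydrogenase, by 2.37 ± 0.28. Among tubulins the beta genes tub3, tub4 and tub6 rose by 1.48 to 1.84, TUB8 and 1 gamma tubulin gene (TUBC, GRMZM2G085970) fell by 0.99 and 1.32, and 7 of 12 were not called.

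**Figure D5:**
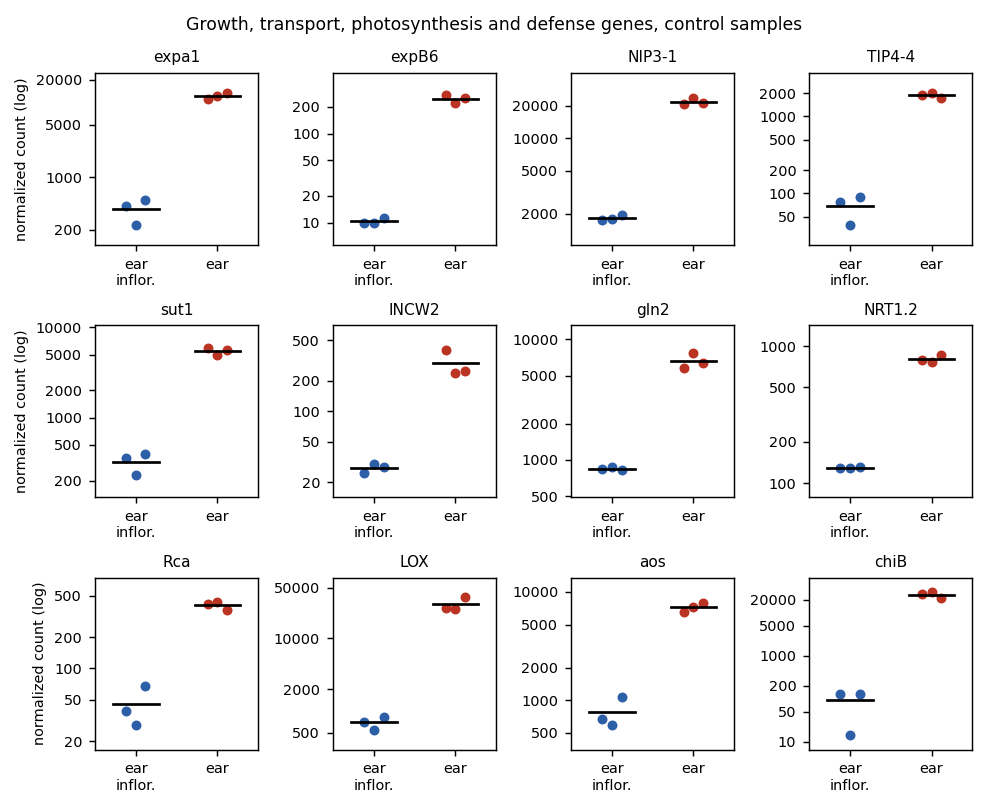
Normalized counts of 12 genes of wall loosening, transport, photosynthesis, nitrogen assimilation, the jasmonate list and defense in each control sample (vertical axes, log scale, 1 panel per gene). Blue circles are the 3 ear inflorescence samples, red circles the 3 ear samples, and black bars the group means; in every panel the ear samples lie above all ear inflorescence samples.

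Of 7 genes of sucrose cleavage 3 were called higher, and of 3 of sucrose transport 2, with none called lower. The remaining transporter gene was lower in every ear sample without a call (-0.81 ± 0.19, limma adjusted p = 0.0021). Sut1, a sucrose transporter of the plasma membrane, had 355, 230 and 394 normalized counts in the ear inflorescence and 5961, 4891 and 5618 in the ear (4.10 ± 0.24). The cell wall invertase INCW2, known from the kernel mutant miniature1, had 24.5, 30.1 and 28.6 against 406, 239 and 252 (3.35 ± 0.31), and the vacuolar invertase ivr2 had 783, 834 and 1336 against 5551, 4464 and 4220 (2.30 ± 0.29). Sus2, a sucrose synthase, rose by 1.57 ± 0.14, while sus1 had 74169, 96815 and 85995 against 86947, 96568 and 81416 and overlapped. Incw1 had 23.8, 45.1 and 225 against 444, 372 and 365 and was not called, with its replicate 3 inflorescence sample apart from the others (2.63 ± 0.70). Of 16 starch synthesis genes none was called higher. Iso3 and zpu1, both debranching enzymes, fell by 1.01 ± 0.19 and 1.40 ± 0.24, a share of the list near the 12.4% of all identifiers called lower.

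Glutamine synthetase genes, which fix ammonium, were called higher for gln2, gln3, gln4, gln5 and GLN6, and the 2 identifiers of gln1 were not called (GRMZM2G098290, 0.73 ± 0.18, and GRMZM5G885867, -0.11 ± 0.14). Gln2 had 832, 865 and 817 normalized counts in the ear inflorescence and 5825, 7766 and 6308 in the ear (2.97 ± 0.22), and the nitrate transporter NRT1.2 had 130, 130 and 131 against 789, 770 and 857 (2.62 ± 0.17). NAR1S, a nitrate reductase, rose by 2.27 ± 0.22, and another gene named as a nitrate reductase was not called (-0.44 ± 0.24). The asparagine synthetase asn2 fell from 278, 419 and 285 to 112, 117 and 121 (-1.45 ± 0.29). In all 7 of 14 nitrogen genes rose and 1 fell.

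Photosynthesis genes rose too, with 9 of 12 photosystem and light-harvesting genes and 7 of 9 genes of the C4 pathway and Calvin cycle called higher, none lower, and medians of 1.78 and 1.77. The Rubisco small subunit rbcS (GRMZM2G098520) had 268, 265 and 541 normalized counts in the ear inflorescence and 1732, 1601 and 1329 in the ear (2.19 ± 0.25). Rca, the activase of Rubisco, had 39.3, 28.6 and 67.6 against 418, 432 and 362 (3.22 ± 0.23), and the light-harvesting gene cab-m9 rose by 2.16 ± 0.32. The C4 enzyme gene pep1 rose from 9.81, 7.16 and 14.3 to 97.2, 44.9 and 64.4 (2.59 ± 0.37). Summed over 11 leaf and husk markers, the counts were 9357 to 14500 in the ear inflorescence and 32119 to 40071 in the ear, which was 0.0308% to 0.0465% and 0.0734% to 0.0905% of all counts. The part of green husk or other tissue in these changes was not tested. In the list of clock and related genes 3 of 4 were called lower. Gigantea1 and PRR59 fell by 1.16 and 1.65, and conz1, also named Hd1, by 2.10. The time of collection is not given for either stage.

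Among the hormone lists, that of jasmonate had the most calls. Of 35 genes in this list, 19 were called higher and none lower, with a median of 1.42. The list takes lipoxygenase and TIFY genes by name, and which of them act in jasmonate synthesis or response was not tested. A lipoxygenase (LOX, GRMZM2G156861) had 705, 539 and 832 normalized counts in the ear inflorescence and 26503, 25506 and 37321 in the ear (5.43 ± 0.32). Lox3 had 428, 561 and 631 against 2598, 2850 and 3334 (2.45 ± 0.17), and the allene oxide synthase gene aos had 672, 598 and 1078 against 6467, 7254 and 7938 (3.25 ± 0.31). TIFY25, of the family that includes the jasmonate repressors, had 24.5, 18.6 and 31 against 314, 166 and 337 (3.37 ± 0.31). Ts1, the lipoxygenase of the jasmonate step that arrests pistils in the tassel, was not called, at 159, 144 and 166 against 102, 137 and 140 (-0.32 ± 0.22).

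Auxin genes moved both ways. The transporter gene PIN1d had 3065, 3641 and 3330 normalized counts in the ear inflorescence and 372, 751 and 582 in the ear (-2.61 ± 0.22), while PIN10a rose from 292, 251 and 553 to 1607, 1889 and 1848 (2.37 ± 0.27) and PIN5c by 2.76 ± 0.39. Of 28 Aux/IAA and auxin response factor (ARF) genes 9 fell and 4 rose, the latter a share near the 13.2% of all identifiers called higher. ARF11 had 1676, 1764 and 1278 against 191, 249 and 203 (-2.87 ± 0.19), ARF23 fell by 2.06 ± 0.14, and ARF21 and AUX18 rose by 1.77 ± 0.19 and 1.91 ± 0.23.

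Cytokinin genes were called in both directions, with 4 of 29 higher and 7 lower. The share called higher is near the 13.2% of all identifiers, and 12.4% of all were called lower. The histidine kinase receptor genes hk2 and hk3 fell by 1.94 ± 0.26 and 2.14 ± 0.27, and HK1, HK1a2 and HK1b2 by 1.06, 1.26 and 1.02. Oxidases that degrade cytokinin went both ways: cko2 fell from 47, 56.6 and 46.9 to 5.86, 6.6 and 9.5 (-2.64 ± 0.43), and CKX6 and CKX10 rose by 2.20 ± 0.35 and 1.19 ± 0.24. Abph1, a response regulator that limits meristem size, rose from 10.5, 10 and 27 to 58.6, 95 and 97.1 (2.43 ± 0.41).

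Of 5 gibberellin genes 2 were called lower and none higher, both of the type that acts at the first step of synthesis. Anther ear1 (an1), an ent-copalyl diphosphate synthase whose loss gives stamens in the ear, had 2557, 2883 and 2064 normalized counts in the ear inflorescence and 322, 388 and 317 in the ear (-2.86 ± 0.31), and the related CPS1 fell by 1.45 ± 0.26. The DELLA gene D8, a repressor of gibberellin response, was not called (-0.36 ± 0.25). Vp14, the dioxygenase of abscisic acid synthesis, rose from 86.9, 70.9 and 114 to 392, 498 and 651 (2.49 ± 0.20), and ACO20 and acs7, of ethylene synthesis, rose by 2.35 ± 0.30 and 1.64 ± 0.26. Na1, a brassinosteroid gene, rose by 0.88 ± 0.18.

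Counts in the transcription factor families are to be set against the 13.2% of all identifiers called higher and the 12.4% called lower, and those of the ERF, HB and bZIP families lie near these shares in at least 1 direction. Of 24 MYB genes 10 rose and 1 fell (median 1.17). Among those that rose, MYB30 had 37.1, 25.1 and 33.4 normalized counts in the ear inflorescence and 247, 199 and 210 in the ear (2.75 ± 0.25) and myb31, a repressor of lignin genes, had 21, 30.1 and 39 against 148, 136 and 173 (2.34 ± 0.25). Of 21 NAC genes 5 rose and 2 fell. NAC95 had 1.4, 0 and 4.77 against 139, 127 and 131, whereas nam1 (GRMZM2G393433), a homologue of the organ boundary gene CUC2, had 186, 266 and 142 against 2.34, 7.92 and 2.11 (-5.41 ± 0.59). Of 27 ERF and DREB genes 7 rose and 3 fell, EREB161 from 410, 563 and 496 to 41, 71.3 and 64.4 (-3.06 ± 0.27). Of 31 homeobox genes with HB symbols 4 rose, HB128 from 17.5, 22.2 and 31.8 to 290, 296 and 276 (3.58 ± 0.32), and 6 fell. None of 15 WRKY genes was called by limma, while 7 of them had an unadjusted p under 0.05, and edgeR and DESeq2 called 3 and 2 of them at the same raw p.

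Of 34 basic helix-loop-helix genes 8 rose and 3 fell, among the latter BA1 and bHLH168, which had 1669, 1726 and 1561 normalized counts in the ear inflorescence and 539, 610 and 630 in the ear (-1.48 ± 0.15). Of 26 bZIP genes 4 rose and none fell, bZIP84 from 141, 133 and 262 to 611, 642 and 756 (1.97 ± 0.22). Among OVATE family genes, repressors of growth and organ length in Arabidopsis, OFP25 and OFP8 rose by 2.82 ± 0.35 and 3.09 ± 0.43, and OFP28 fell from 229, 279 and 234 to 21.1, 48.8 and 39.1 (-2.81 ± 0.40). Of 9 heat-shock factors 3 rose, HSF29 by 1.19 ± 0.19, Hsf12 by 1.15 ± 0.19 and Hsf05 by 1.77 ± 0.36. Hsf26 fell by 4.33 ± 0.61, with uneven ear inflorescence samples at 178, 87.4 and 65.2. Of 9 WUSCHEL-related homeobox genes 1 was called, wox9A, which fell from 43.5, 48.7 and 27 to 9.37, 7.92 and 6.33 (-2.17 ± 0.41). Among 11 cell number regulator and ARGOS genes, named for their part in organ size, CNR7, CNR01 and CNR06 rose, the last from 1070, 1052 and 1278 to 2192, 2814 and 2414 (1.12 ± 0.17).

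Of 11 pathogenesis-related proteins and inhibitors 10 rose, with a median of 2.33. The chitinase genes chiB and chiA, whose products cut fungal walls, had 131, 14.3 and 128 and 10.5, 5.01 and 25.4 normalized counts in the ear inflorescence. In the ear chiB had 26579, 29549 and 21466 (8.65 ± 1.00) and chiA had 2534, 3008 and 2341 (7.74 ± 0.62). PR-5 had 0.7, 0.72 and 3.18 against 230, 120 and 259 (6.39 ± 0.63), and KWL1 had 149, 165 and 248 against 2231, 2318 and 2097 (3.59 ± 0.37). The inflorescence counts of PR-5 rest on a few reads, so its fold change depends on the pseudocount.

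Glutathione transferases, which detoxify, rose for 10 of 23 genes, none fell, and the median was 1.71. Gst9 had 16.8, 12.9 and 16.7 normalized counts in the ear inflorescence and 580, 363 and 441 in the ear (4.79 ± 0.39), and GST26 had 5.61, 7.88 and 8.75 against 138, 132 and 102 (3.90 ± 0.31). Of 8 benzoxazinoid genes, for the indole-derived defense compounds of grasses, 5 rose, with BX4 at 652, 662 and 1105 against 4696, 4631 and 4963 (2.61 ± 0.26). Asr1 and the dehydrin dhn1, both induced by abscisic acid and drying, rose by 4.29 ± 0.34 and 4.92 ± 0.46. The cysteine protease see1, known from senescing leaves, rose by 2.04 ± 0.18, in a list of which 5 of 9 rose. Of 11 heat-shock proteins 1 was called, hsp22, which fell from 12058, 7734 and 9601 to 5066, 3761 and 3997 (-1.18 ± 0.20). That count is near the 12.4% of all identifiers called lower. Of 10 flavonoid genes 1 was called, BZ1, a glucosyltransferase of anthocyanin (1.87 ± 0.35), a count near the 13.2% of all identifiers called higher. Inflorescence replicate 3 stood apart for A1, at 225, 334 and 2399, and for c2, at 91.1, 105 and 757.

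Outside the lists, genes were named by the size of their change among 4832 called identifiers that matched 1 RefSeq gene and did not overlap between the stages. The 10 largest increases were GRMZM2G104616, GRMZM2G118873, GRMZM2G036203, chiB, GRMZM2G009465, GRMZM2G055684, GRMZM2G067315, chiA, CNR7 and GRMZM2G101818. GRMZM2G104616 had 5.61, 10 and 3.98 normalized counts in the ear inflorescence and 8343, 6666 and 8520 in the ear (10.09 ± 0.81). CNR7, of the cell number regulator family, had 0, 0 and 0.8 against 186, 227 and 246. The identifiers shown by number have no named function in the annotation used here.

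The 10 largest decreases were MADS34, GRMZM2G061499, GRMZM2G147241, NF-YA4, nam1, GRMZM2G456217, GRMZM2G097135, Hsf26, lg2 and GRMZM2G386155. MADS34 had 281, 485 and 692 normalized counts in the ear inflorescence and 3.51, 5.28 and 0 in the ear (-7.23 ± 1.13). Liguleless2 (lg2), a bZIP gene that acts at the boundary of leaf blade and sheath, had 96, 136 and 77.1 against 1.17, 6.6 and 7.39. GRMZM2G061499 and the CCAAT-binding subunit NF-YA4 were at 0 in all ear samples, which against a floor of 3 reads in an ear library makes them at least 26.3-fold and 12-fold lower. MADS34, NF-YA4, nam1, Hsf26 and lg2 belong by name to families of transcription factors.

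Markers of kernel and pollen were examined as other tissues that an ear could hold. Of 19 zein genes, the storage proteins of the endosperm, 14 had 3 reads or fewer in every ear library and 16 in every ear inflorescence library. The zein gene above the minimum mean was zp27, at 15.4, 10 and 12.7 normalized counts in the ear inflorescence and 163, 106 and 143 in the ear (3.33 ± 0.35). Ole17, an oleosin of oil bodies, was called higher as well, from 60.3, 63.8 and 91.4 to 205, 231 and 261 (1.70 ± 0.34). The summed counts of the 27 kernel markers were 106 to 132 in the ear inflorescence and 375 to 447 in the ear, and their part in the changes was not tested. Of 7 pollen and anther genes, the pollen beta-expansins EXPB10 and EXPB1A were at 0 in every ear inflorescence sample. In the ear they were at 48, 42.2 and 39.1 and at 24.6, 34.3 and 22.2. Limma did not call them, with SE of 1.35 and 1.37 (limma adjusted p = 0.0035 and 0.0093), while edgeR called both and DESeq2 1 at the same raw p. The summed counts of these 7 genes were 2.39 to 12.9 in the ear inflorescence and 83.4 to 117 in the ear. Most of the ear sum came from the beta-expansins. The male sterility genes of the list were below the minimum mean and were not called, with fold changes of -0.05 to 1.26. Of 13 genes often used as constant controls 1 was called, act1, which rose by 1.75 ± 0.25. The median of these genes was 0.63, and it was 0.13 with equal-total scaling.

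The same stage contrast was available in the event plants, with no sample in common. By the interaction term, the difference from the change in the control plants passed the same raw p for 8 of the 39622 identifiers in event 1 (0.0202%). In event 2 it passed for 1 (0.00252%). Without any difference, about 0.0001 of the tests would pass this threshold, a fraction and not a percent like the shares above. In event 1 the limma adjusted p was 0.15 to 0.36 for all of these identifiers but hsp22. List medians are given side by side, without a test: expansins had 2.23 in the control plants, 2.55 in event 1 and 1.94 in event 2, cyclins and mitosis had -1.35, -1.43 and -1.31, and jasmonate genes had 1.42, 1.41 and 0.96. Heat-shock proteins had -0.38, 0.59 and 0.13, histones 0.01, 0.12 and -0.60, and the 2 pollen genes above the minimum mean 5.12, 5.06 and 1.39. Among the genes that passed the raw p was hsp22, in both events, whose differences share the same control samples. Its fold change of -1.18 in the control plants stood against 1.05 in event 1, a difference of 2.24 ± 0.28 (limma adjusted p = 0.017), and against 0.44 in event 2, a difference of 1.63 ± 0.28 (limma adjusted p = 0.64). The control inflorescence samples were the high ones, at 12058, 7734 and 9601, against 2856, 4171 and 3336 in event 1 and 4253, 3280 and 3166 in event 2. ZmTIP4-3 rose in all 3 kinds of plant, by 5.23 in the control plants, 8.13 in event 1 and 6.06 in event 2, and its difference of 2.90 ± 0.56 between event 1 and the control plants had a limma adjusted p of 0.36. GRMZM2G097135, among the 10 largest decreases, fell by 4.57 in the control plants, 1.08 in event 1 and 1.87 in event 2. Its 3 control inflorescence samples were at 1080, 538 and 401 and those of event 1 at 88.7, 101 and 90.7. Hsf26, also among the 10 largest decreases, fell by 4.33 in the control plants, 1.06 in event 1 and 1.32 in event 2. Its differences between plants did not pass the raw p.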

How the data were processed

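Expression was measured by RNA sequencing of 18 samples in 6 groups of 3. Per the study's methods, RNA was taken with TRIzol, TruSeq libraries were read for 50 bases on a HiSeq2000, CASAVA 1.8.2 made the reads and Bowtie 0.12.8 aligned them to transcripts of the B73 line, with up to 2 mismatches in a seed of 28 bases. Reads on more than 10 transcripts were ignored and other reads were counted on every transcript they matched, so totals are read assignments and near-identical genes share counts. The authors then divided the counts by a DESeq size factor for each sample, and the deposited values (signal) are these normalized counts. The authors' fold changes and p-values were not among the files used here.

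Whole reads were recovered from the deposited values by dividing by the smallest step of each sample: 433951 of 433951 low values came out whole at a tolerance of 0.1. The recovered totals were 33538156 to 41446529 assignments in the control ear and 39195402 to 43705536 in the control ear inflorescence. Log2(normalized count + 1) was fitted with limma 3.58.1 in R 4.3.3 as 6 group means over all 18 samples and 76612 identifiers, with a trended prior, and calls were made at a raw p of 0.0001 or less, the threshold of the study. Adjusted p-values were made by the Benjamini-Hochberg method over all identifiers. The step was tested on simulated data. P-values measure the spread between these samples; an exact permutation test of 3 against 3 samples cannot go below p = 0.1. Alternatives were a pseudocount of 0.1, members or control samples alone, a replicate block, quantile normalization, edgeR 4.0.16 and DESeq2 1.42.0 on the recovered reads, leaving out each control sample, an adjusted p under 0.05, a mean of at least 100 and, chosen after seeing the normalized totals, scaling to equal totals of assigned reads.

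Identifiers were matched by synonym to the RefSeq gene table of assembly Zm-B73-REFERENCE-NAM-5.0, for names only. Of 39622 identifiers described, 16408 matched. The members and the gene lists were chosen with earlier results of these data known. Genes given by symbol in a list could be named, called or not. In lists made by a name pattern, the 2 called higher and 2 called lower with the smallest p were named, and over all calls the 10 largest and 10 smallest fold changes without overlap. Other genes of pattern lists were named after their values were seen. In the lists 6 pairs of identifiers had values within 5% of each other and may share reads. A gene of the lists is not reported here. No sequences are shown, since no sequence table was used here.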

Additional observations from a re-analysis of the deposited data

Results flagged for a closer look

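For 3 genes named in the report, the difference between event and control plants in the change from ear inflorescence to ear passed a raw p of 0.0001 or less. The test was the interaction term of limma. For hsp22, a heat-shock protein gene, the log2 fold change exceeded that of the control plants by 2.24 in event 1 and by 1.63 in event 2, and all 3 control ear inflorescence samples lay above all 6 event ear inflorescence samples. Both differences share the same control samples, and the adjusted p in event 2 was 0.64. For ZmTIP4-3, a vacuolar aquaporin gene, the increase in event 1 exceeded that of the control plants by 2.90. For GRMZM2G097135 the difference in event 1 was 3.49. Across the interaction tests, 8 identifiers passed in event 1 and 1 in event 2, and of the differences given here that of hsp22 in event 1 had an adjusted p under 0.05 (0.017).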

How the results depend on the processing

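Counts of calls depended on the samples and the scaling. With the 6 control samples alone, which leaves fewer samples to estimate the spread, 2473 identifiers were called higher and 2368 lower, with 101 and 61 of the list genes. At an adjusted p under 0.05 limma called 11459 and 11966, with 364 and 195 list genes. Equal-total scaling gave 2868 and 7784, with 153 and 179 list genes, and edgeR on the recovered reads 7778 and 7440. Without ear inflorescence replicate 1, 2 or 3 there were 3166, 3025 and 4057 called higher and 1865, 1898 and 2736 lower, and without ear replicate 1, 2 or 3 there were 3565, 3503 and 3225 higher and 2751, 2725 and 2265 lower. Over these 6 fits the list genes ranged from 143 to 183 higher and from 71 to 86 lower. The replicate block gave 4874 and 4305. Same-numbered samples deviated with correlations of 0.041, -0.009 and 0.05 over genes, so the numbers were not taken to pair samples.

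Of the 215 genes named, some of them for a small p or a large change, 176 were called, and 72 of these were called in every alternative. The call was lost for 83 with control samples alone, 25 with equal-total scaling, 24 with quantile normalization, 5 with a pseudocount of 0.1, 5 with the replicate block, 3 with edgeR and 1 with DESeq2, and for 33 to 51 when 1 control sample was left out. No called gene changed direction, which the size of change needed for a call makes likely from the start. Among genes not called, the log2 fold change turned negative with equal-total scaling for GIF2 (-0.39), GRF10 (-0.04), RNRS1 (-0.50), TIP3-1 (-0.42), cdc2 (-0.13), rdr6 (-0.43), sus1 (-0.46) and zmm16 (-0.40), with quantile normalization for RNRS1 (-0.38) and sus1 (-0.90), and positive with edgeR for tan1 (0.04). When 1 control sample was left out, the values ranged from -0.12 to 0.12 for RNRS1, -0.18 to 0.02 for RNRS3, -0.05 to 0.17 for TIP3-1, -0.05 to 0.14 for sus1, -0.07 to 0.12 for tan1 and -0.02 to 0.22 for zmm16.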
